A study of Mus musculus with 5 samples.

Results

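The genes that build the RAS, RAF, MEK and ERK tiers of the growth factor cascade were read in mouse mammary epithelial EpH4 cells with and without targeting of Mef2d. The 7 members were given by name (the RAS genes Hras and Nras, the RAF genes Araf and Braf, the MEK genes Map2k1 and Map2k2, and the ERK gene Mapk3), and all 7 were found among the 12934 genes of the count table and passed the filter on low counts. The choice covers part of each tier, so no total over a tier is given. RNA was sequenced from cells that all carried lentiviral Cas9 and had been selected with blasticidin and then puromycin: sgControl cells with a control sgRNA (3 libraries) and sgMef2d cells with an sgRNA against Mef2d (2 libraries). EpH4 is an immortalized, non-tumor line of BALB/c mouse mammary gland. The study used 2 sgRNAs against Mef2d, and the labels do not say which of them a library carries or how many selected clones it stands for. Nothing in the labels states that the libraries of a group came from separate cultures, so the p-values measure the spread between these libraries, which may be technical.

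RAS proteins are membrane-bound switches that are loaded with GTP after a receptor is activated. RAS with GTP recruits RAF kinases, which phosphorylate the MEK kinases, and these phosphorylate ERK, which acts on cytoplasmic and nuclear substrates. Activity in this cascade is set mainly by nucleotide exchange and phosphorylation, which read counts do not show. In mammary epithelium the cascade is known for carrying growth factor signals into proliferation, branching and migration.

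The libraries held between 13601145 and 20498563 counts, and library sizes were scaled by the TMM method of edgeR. Mef2d itself, the targeted gene, reached between 64.3 and 76.9 CPM (counts scaled to a library of standard size) in sgControl and was 64.2 and 65.8 CPM in sgMef2d. Its log2 fold change (log2FC, sgMef2d over sgControl) was -0.12 (adjusted p = 0.400 by edgeR), and a level of RNA need not move when an edit disrupts the protein, so it does not check the labels. Of 11 markers of mammary epithelium, 10 were tested, with a summed level of 4299 to 4483 CPM in sgControl and 4091 to 4260 CPM in sgMef2d. Of 6 fibroblast markers 5 were tested, with sums of 641 to 765 and 603 to 645 CPM. Of 5 leukocyte markers 1 was tested, at 0.660 to 0.829 and 0.883 to 1.28 CPM, and 0 of 4 endothelial markers were listed. Within these sums, 2 epithelial and 2 fibroblast markers passed the threshold in opposite directions: Krt18 (log2FC -0.26) and Cldn4 (0.26), and Col1a2 (-0.54) and Dcn (1.23, from 0.922 to 1.90 CPM in sgControl to 3.30 and 3.47 CPM in sgMef2d). The part of these levels in the results was not tested. In bulk RNA, a different mix of cells and a different amount of RNA per cell cannot be told apart. Leaving out sgControl replicate 1 raised the number of genes past the threshold from 992 to 3639, while leaving out any other library lowered it. That library stands apart, and the counts of calls are given with and without it. Without it, 3 epithelial markers passed higher and 3 lower, as did 2 and 3 fibroblast markers. Values of the libraries are given in the order of their replicate numbers.

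Since paralogs can share reads, the longest identical run between the coding sequences of the RAF pair and of the MEK pair is printed first (GENCODE M21 transcripts on GRCm38, sense strand, in lower case with nothing marked). The run of the RAF pair is shorter than a 50-base word, while the MEK pair shares a run longer than that.
Araf and Braf: acacagtggtgtgaggg
Map2k1 and Map2k2: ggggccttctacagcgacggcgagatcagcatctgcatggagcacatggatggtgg

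Exons are counted in the transcripts compared. The RAF run of 17 bases lies in exon 11 of Araf (chrX:20857679-20857695, plus strand) and exon 16 of Braf (chr6:39639683-39639699, minus strand). The MEK run of 56 bases spans the junction of exons 3 and 4 in both genes (chr9:64212584-64212631 and chr9:64205181-64205188, minus strand, for Map2k1, and chr10:81115125-81115172 and chr10:81118152-81118159, plus strand, for Map2k2). Of all 50-base words in their annotated transcripts, 0% of those of Hras and Braf, 0.0428% of Mapk3, 0.122% of Map2k2, 0.207% of Map2k1, 0.661% of Nras and 1.02% of Araf also occur in a transcript of another gene. Exons of Braf share 146 bases with Ndufb2 and those of Araf share 9 bases with Syn1, both on the opposite strand. The library kit marks strand, and whether the counting used it is not given in the sources used here.

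Between sgMef2d and sgControl, Hras rose by 20.4%, Map2k2 and Braf had differences of similar size in opposite directions that did not pass the threshold, and Nras, Araf, Map2k1 and Mapk3 lay within 0.03 of no change on the log2 scale. Over all genes, 992 of 12483 genes tested (7.95%) had a Benjamini-Hochberg adjusted p below 0.05 in the quasi-likelihood test of edgeR. Of the members, 1 of 7 (14.3%) passed it, upward, where 3.67% of all genes passed upward and 4.28% downward. With 7 members, 1 call is close to that background. At an unadjusted p below 0.05 there were 3 of 7 members and 23.2% of all genes. The sgMef2d and sgControl libraries did not overlap in 3 of 7 members (42.9%) and in 41.1% of all genes, so this share lay near the background. The median absolute log2FC was 0.027 over the members and 0.12 over all genes tested, and the signed medians were -0.0072 and 0.0031.

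**Figure D1:**
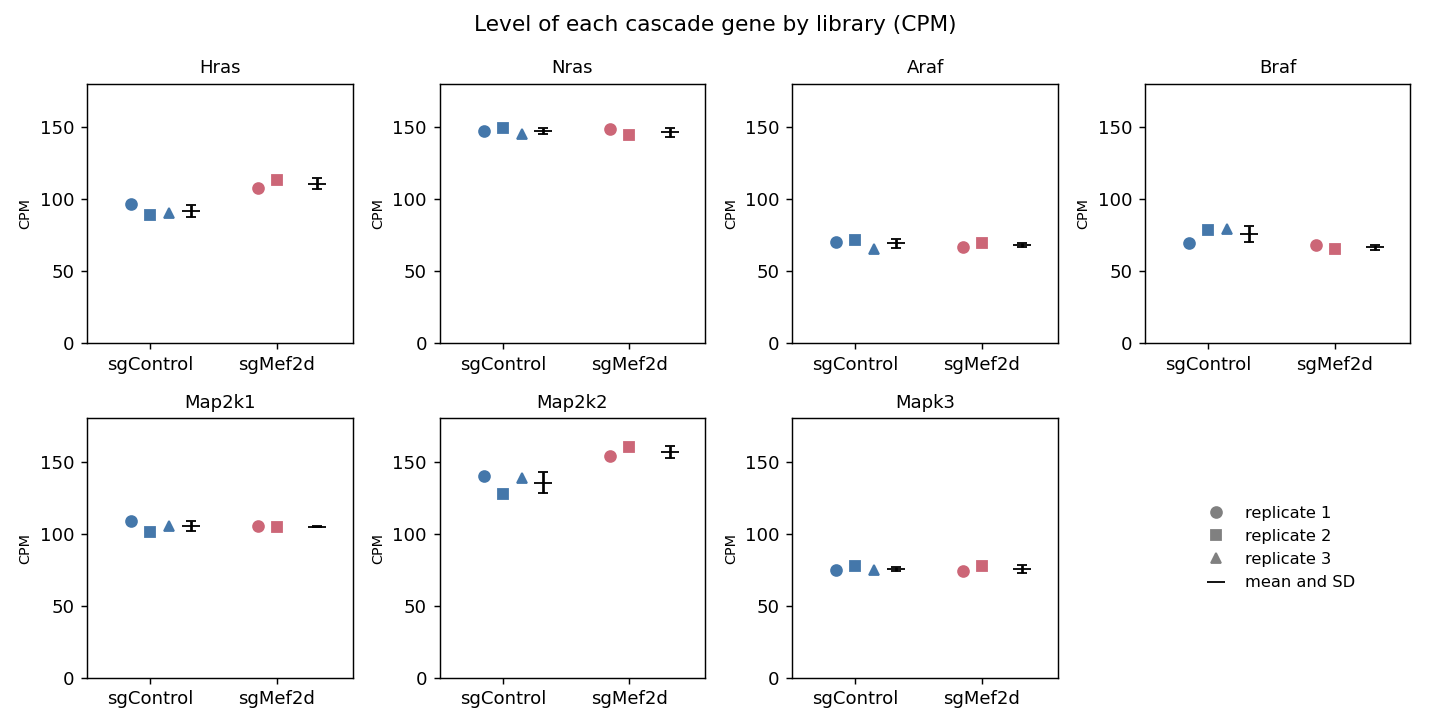
Level of each of the 7 members in CPM (vertical axis from 0) in the 3 sgControl libraries (blue) and the 2 sgMef2d libraries (red), with symbols for the replicate numbers and the mean with its SD in black. The sgMef2d libraries lie above all sgControl libraries for Hras and Map2k2 and below them for Braf, where sgControl replicate 1 (69.0 CPM) is close to sgMef2d replicate 1 (67.7 CPM).

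Of the RAS genes, Hras (ENSMUSG00000025499.18, chr7:141189105-141194005, minus strand) encodes a GTPase held at the membrane by farnesyl and palmitate groups. The sgControl libraries had 96.2, 88.5 and 90.4 CPM, and the sgMef2d libraries 108 and 113 CPM. Both sgMef2d libraries were higher than every sgControl library. Mean levels of 91.7 ± 4.01 CPM (SD, n = 3) in sgControl and 110.5 ± 3.94 CPM (SD, n = 2) in sgMef2d gave a fitted log2FC of 0.27 with a standard error of 0.064 (adjusted p = 0.0258 by edgeR). The 95% interval ran from 9.27% to 32.6% higher. The call was not kept without sgControl replicate 2 (adjusted p = 0.116), sgControl replicate 3 (0.0634), sgMef2d replicate 1 (0.158) or sgMef2d replicate 2 (0.343), while the log2FC stayed between 0.23 and 0.30.

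Nras (ENSMUSG00000027852.14, chr3:103058285-103067914, plus strand) encodes a close relative of Hras with the same role as a switch. Its level was 147, 149 and 145 CPM in the sgControl replicates and 148 and 144 CPM in the sgMef2d replicates. The groups overlapped, and all 5 libraries lay within a narrow band. The log2FC was -0.0090 (adjusted p = 0.946, the same test), and its 95% interval ran from -0.13 to 0.11. A change of the size fitted for Hras lies outside that interval.

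Of the RAF genes, Araf (ENSMUSG00000001127.12, chrX:20797814-20860519, plus strand) encodes a MEK kinase of low basal activity. Its level was 70.2, 71.7 and 65.4 CPM in sgControl and 66.7 and 69.0 CPM in sgMef2d. The groups overlapped, with both sgMef2d values inside the sgControl range. The log2FC was -0.027, with a 95% interval from -0.17 to 0.12 (adjusted p = 0.857).

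Braf (ENSMUSG00000002413.15, chr6:39603237-39725463, minus strand) encodes the RAF kinase with the highest basal activity toward MEK. Its level was 69.0, 78.4 and 79.0 CPM in sgControl and 67.7 and 65.0 CPM in sgMef2d. The groups did not overlap, but sgControl replicate 1 lay nearer to the sgMef2d libraries than to the other sgControl libraries. The log2FC was -0.18 with a standard error of 0.075 (adjusted p = 0.170 by edgeR), with a 95% interval from -0.35 to -0.018. Without sgControl replicate 1, Braf passed the threshold, with a log2FC of -0.25 (adjusted p = 2.37e-04).

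Map2k1 and Map2k2 encode MEK1 and MEK2, the kinases that phosphorylate ERK on a threonine and a tyrosine. Map2k1 (ENSMUSG00000004936.8, chr9:64185770-64253631, minus strand) had 109, 101 and 106 CPM in sgControl and 105 and 104 CPM in sgMef2d. Both sgMef2d values lay inside the sgControl range. The log2FC was -0.0072, with a 95% interval from -0.14 to 0.13 (adjusted p = 0.961).

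Map2k2 (ENSMUSG00000035027.18, chr10:81105915-81133975, plus strand) had 140, 127 and 139 CPM in sgControl and 154 and 160 CPM in sgMef2d. The groups did not overlap, with both sgMef2d libraries higher. The log2FC was 0.21 with a standard error of 0.063 (adjusted p = 0.0647 by edgeR), which did not pass the threshold, and its 95% interval ran from 0.073 to 0.35. Without sgControl replicate 1, Map2k2 passed with a log2FC of 0.24 (adjusted p = 1.25e-05), and so did Hras with 0.30 (adjusted p = 4.40e-07). In that fit 29.4% of all genes tested passed, and 3 of the 7 members did.

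Mapk3 (ENSMUSG00000063065.13, chr7:126759601-126765819, plus strand) encodes ERK1, the kinase at the end of the cascade. Its level was 74.7, 77.4 and 74.5 CPM in sgControl and 73.7 and 77.4 CPM in sgMef2d. The groups overlapped, with mean levels of 75.5 ± 1.59 CPM in sgControl (SD, n = 3) and 75.6 ± 2.62 CPM in sgMef2d (SD, n = 2). The log2FC was 9.66e-04, and its 95% interval ran from -0.14 to 0.14 (adjusted p = 0.995). By immunoblot, the study saw more phosphorylated ERK protein in sgMef2d EpH4 cells, while total ERK had no obvious change. RNA counts show neither the amount nor the phosphorylation of the protein.

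**Figure D2:**
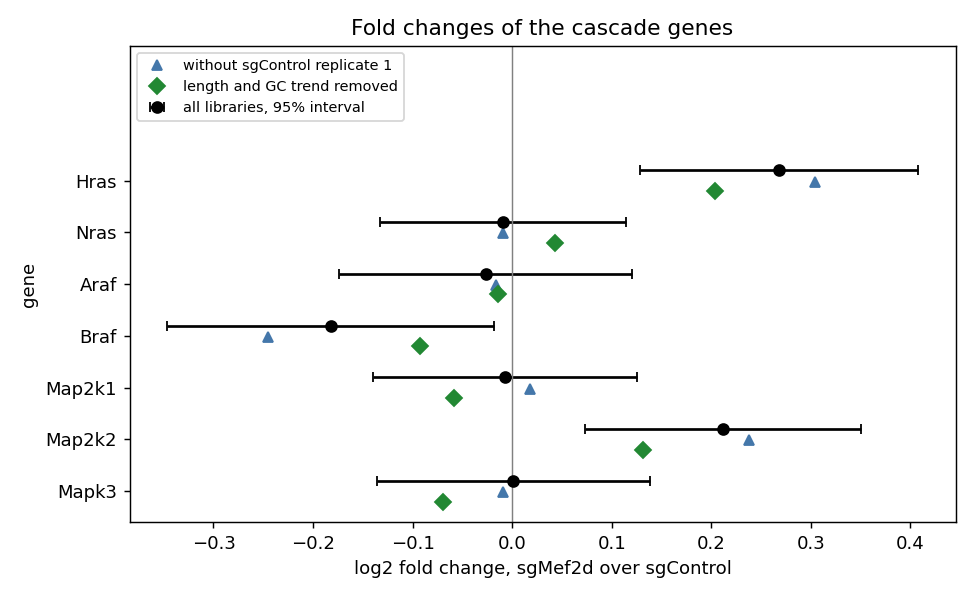
Log2 fold change of sgMef2d over sgControl (horizontal axis) for each member: black points are the fit over all libraries with its 95% interval, blue triangles the fit without sgControl replicate 1, and green diamonds the fit after removal of the length and GC trend in each library. The interval lies above 0 for Hras and Map2k2 and below 0 for Braf, and the green diamonds of Map2k2 (0.13) and Braf (-0.093) lie closer to 0 than the black points.

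The members differ in transcript composition. The longest annotated transcripts of Map2k2, Mapk3 and Hras hold 60.4%, 57.6% and 55.2% G and C, those of Map2k1 and Araf 51.2% and 45.5%, and those of Braf and Nras 42.6%. When the length and GC trend was removed from each library, the log2FC was 0.20 for Hras (adjusted p = 0.0302, the same test), 0.13 for Map2k2 (0.131) and -0.093 for Braf (0.321). Hras passed the threshold in both fits, with a smaller log2FC once the trend was removed. That fit called 1452 genes, against 992 without the removal. The fitted differences of Map2k2 and Braf were over 1.5 times smaller in it.

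Between paralogs, the ratio of counts within a library does not depend on how libraries are scaled. The log2 ratio of Hras to Nras was -0.61, -0.75 and -0.68 in sgControl replicates 1, 2 and 3, and -0.46 and -0.35 in the sgMef2d replicates. Hras held 37.2% to 39.5% of the counts of the pair in sgControl, and 42.1% and 44.0% in sgMef2d. The groups did not overlap, and the mean log2 ratios differed by 0.28 (-0.68 ± 0.070, SD, n = 3, and -0.40 ± 0.081, SD, n = 2). The ratio is not corrected for transcript length and GC content, in which Hras and Nras differ. The part of composition in the difference was not tested. With the length and GC trend removed (a check added once the data had been seen), the difference was 0.16, over 1.5 times smaller, with sgControl at -0.55, -0.72 and -0.64 and sgMef2d at -0.50 and -0.45, still without overlap.

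The log2 ratio of Map2k2 to Map2k1 was 0.37, 0.33 and 0.39 in sgControl and 0.55 and 0.62 in sgMef2d. Map2k2 held 55.7% to 56.8% of the counts of the pair in sgControl, and 59.4% and 60.5% in sgMef2d. These groups did not overlap either, with means that differed by 0.22, and by 0.19 with the trend removed. Nras and Map2k1 lay near no change, so the RAS and MEK ratios are not independent of the differences of Hras and Map2k2. How often other pairs of genes separate in this way was not tested, and 41.1% of single genes did. The log2 ratio of Araf to Braf was 0.023, -0.13 and -0.27 in sgControl and -0.021 and 0.087 in sgMef2d, and here the groups overlapped (difference 0.16, and 0.081 with the trend removed). Without sgControl replicate 3 that difference was 0.085, and without sgMef2d replicate 2 it was 0.10. The sgControl libraries spread more in this ratio (SD 0.15) than in the other two (SD 0.070 and 0.033).

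A two-sided exact permutation test over the 10 arrangements of 5 libraries gave p = 0.1 for the RAS and MEK ratios and p = 0.3 for the RAF ratio. The smallest p this design allows is 0.1, so it cannot reach 0.05. Over the 3 ratios, the Benjamini-Hochberg adjusted values of the exact test were 0.15, 0.15 and 0.3. With the trend removed, the exact p was 0.2 for the RAS ratio, 0.1 for the MEK ratio and 0.6 for the RAF ratio.

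**Figure D3:**
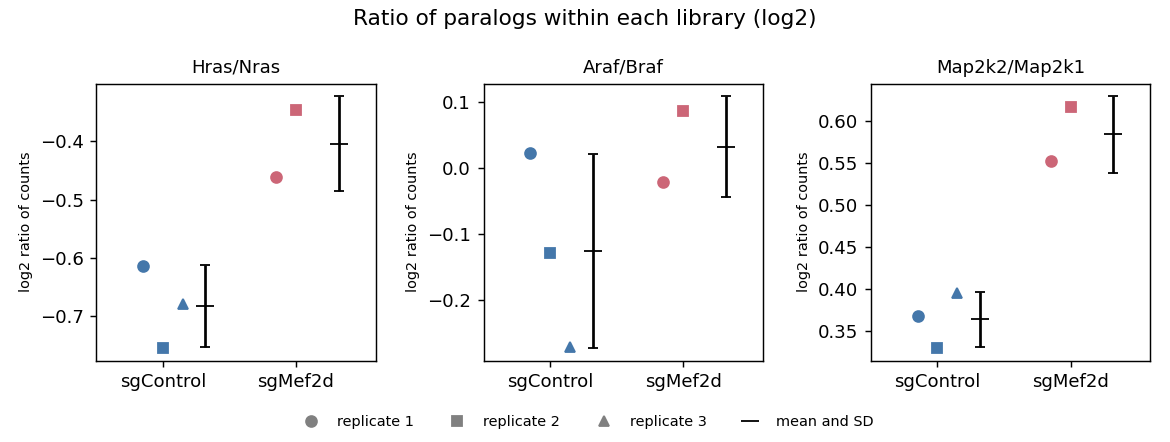
Log2 ratio of the counts of 2 paralogs within each library (vertical axis, a separate range in each panel) for the sgControl (blue) and sgMef2d (red) libraries, with the mean and SD in black. The sgMef2d libraries lie above all sgControl libraries for Hras/Nras and Map2k2/Map2k1, while for Araf/Braf sgControl replicate 1 (0.023) lies between the sgMef2d libraries (-0.021 and 0.087).

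Levels were compared between genes per length, as TPM (counts per exon length, scaled to a fixed sum) over the genes listed, with the annotated exon length of each gene. In sgControl, Mapk3 was highest (111.7 to 121 TPM), followed by Map2k1 (106 to 112 TPM), Nras (93.3 to 99.2 TPM), Hras (84.0 to 87.2 TPM), Map2k2 (79.6 to 88.2 TPM), Araf (36.0 to 38.8 TPM) and Braf (16.8 to 20.5 TPM). The ranges of the neighbours Mapk3 and Map2k1, and of Hras and Map2k2, overlapped. The ranges of the other neighbours in this order did not. By mean level over all libraries, Mapk3, Map2k1, Nras, Hras and Map2k2 lay at percentiles 83.6 to 88.1 of the genes listed, Araf at percentile 63.8 and Braf at percentile 46.1.

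In sgMef2d, Hras (97.9 and 103 TPM) stood above Nras (94.4 and 91.6 TPM), the reverse of sgControl. This order depends on the length assigned to each gene. By the longest annotated transcript in place of all exons, the sgControl ranges were 83.2 to 86.3 TPM for Hras and 83.3 to 88.8 TPM for Nras, and Map2k2 was highest with 141 to 156 TPM. Braf, with 13862 annotated exon bases, was lowest on both scales.

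The promoters of the RAS and MEK pairs are shown because these pairs had ratios that did not overlap between the groups. Each run is the 250 bases before the RefSeq gene start on GRCm38.p6, read 5′ to 3′ on the strand of the gene, and capitals mark the GC box GGGCGG on either strand, where matches may overlap each other.
Hras (chr7:141194005-141194254, minus strand): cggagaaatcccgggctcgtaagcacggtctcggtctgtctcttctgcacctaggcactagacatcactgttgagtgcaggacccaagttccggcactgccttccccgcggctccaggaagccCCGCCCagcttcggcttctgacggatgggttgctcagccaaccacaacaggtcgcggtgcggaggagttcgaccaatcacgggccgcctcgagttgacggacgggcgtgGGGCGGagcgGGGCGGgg
Nras (chr3:103058035-103058284, plus strand): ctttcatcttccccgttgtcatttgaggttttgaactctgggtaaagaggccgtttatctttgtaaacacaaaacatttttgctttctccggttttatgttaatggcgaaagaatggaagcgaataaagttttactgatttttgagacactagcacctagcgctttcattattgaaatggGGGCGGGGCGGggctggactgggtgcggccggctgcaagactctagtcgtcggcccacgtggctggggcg
Map2k1 (chr9:64253606-64253855, minus strand): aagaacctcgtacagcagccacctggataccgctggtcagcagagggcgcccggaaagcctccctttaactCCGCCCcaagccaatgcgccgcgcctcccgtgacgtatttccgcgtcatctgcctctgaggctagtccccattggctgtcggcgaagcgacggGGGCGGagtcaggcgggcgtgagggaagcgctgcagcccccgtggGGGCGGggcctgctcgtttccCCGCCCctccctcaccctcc
Map2k2 (chr10:81105665-81105914, plus strand): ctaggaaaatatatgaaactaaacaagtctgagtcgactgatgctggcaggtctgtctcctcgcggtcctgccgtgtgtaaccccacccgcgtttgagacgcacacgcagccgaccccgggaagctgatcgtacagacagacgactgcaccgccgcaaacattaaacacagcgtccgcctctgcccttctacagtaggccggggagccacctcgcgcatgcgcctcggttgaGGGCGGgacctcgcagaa

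Of the 7 members, 6 had a window in the RefSeq table, and Mapk3 had none. The windows of Map2k1, Hras, Braf and Map2k2 held 68.4%, 65.6%, 62.0% and 59.6% G and C with 23 or 24 CG dinucleotides each. Those of Araf and Nras held 51.2% and 48.4% with 12 and 14. Over all 32851 windows, the medians were 52.4% and 6. The GC box occurred 4 times in Map2k1, 3 times in Hras, 2 times in Nras, 1 time each in Map2k2 and Braf and 0 times in Araf, and 32.7% of all windows held it. The MEF2 motif, searched as CTANNNNTAG on both strands, was in 0 of the 6 windows and in 3.20% of all windows. The TATA box TATAAA (12.4% of all windows) and the ETS motif CCGGAAG (6.91%), also searched on both strands, were in 0 of the 6. These counts describe the letters of these windows.

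The genes whose centred log2 CPM over the 5 libraries lay closest to a member, by root mean square difference among 8018 genes whose mean log2 CPM reached 4 or more, were read as a description. Closest to Hras was Eef1d, a subunit of the translation elongation factor complex (difference 0.015), with a log2FC of 0.27. Closest to Map2k2 was Mrps11, which encodes a mitochondrial ribosomal protein (0.015), and closest to Braf was Asap1, an ARF GTPase-activating protein (0.0088). For Nras, Araf, Map2k1 and Mapk3, these were Cdc23 (0.012), Taz, the tafazzin gene (0.0077), Matr3 (0.0093) and Afg3l2 (0.0055). Among the members, Hras and Map2k2 were each other's closest (0.042), as were Araf and Mapk3 (0.036). Braf lay farthest from any other member (0.11 to Nras). For Mapk3, Nras and Map2k1, a flat profile lay nearer (0.029, 0.020 and 0.033) than any other member. For Braf it lay about as far (0.11), and for Hras, Map2k2 and Araf it lay farther away (0.14, 0.12 and 0.048).

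Around the cascade, 113 genes in 8 lists by role were read, of which 100 were listed and 99 tested. Of these, 8 (8.08%) passed the threshold, 3 higher and 5 lower, against 7.95% of all genes tested. The share lay at the background. Without sgControl replicate 1 there were 33, 16 higher and 17 lower, where 29.4% of all genes passed. Without any 1 of the other libraries there were 0 to 5. The calls of Grb2, Abhd17c and Etv5 were lost without any 1 of those libraries. Those of Shc2, Rasa1 and Rasa2 were lost without sgControl replicate 2 or either sgMef2d library, that of Sfn without either sgMef2d library, and that of Mras without sgControl replicate 2 or sgMef2d replicate 1. The adjusted p in these fits ran from 0.0606 to 0.388 by edgeR.

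Receptor adaptors and exchange factors couple receptors to RAS. Of 19, 13 were tested, with a median log2FC of -0.054, 1 higher and 1 lower past the threshold, and 11 not past it. Without sgControl replicate 1 there were 1 higher and 4 lower. Grb2, the adaptor that brings the exchange factor SOS to receptors, had 95.5, 93.2 and 96.5 CPM in sgControl and 109 and 112 CPM in sgMef2d. Its groups did not overlap, and it rose with a log2FC of 0.22 (adjusted p = 0.0417 by edgeR), a call that the DESeq2 Wald test did not make (0.0946). Shc2, an adaptor best known in neurons, fell from a low level, with 3.32, 3.33 and 1.91 CPM in sgControl and 0.883 and 1.41 CPM in sgMef2d, a log2FC of -1.36 (adjusted p = 0.0321), which limma-voom did not call (0.0556).

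GTPase-activating proteins return RAS to its inactive form. Of 9, 7 were tested, with a median log2FC of -0.10, 0 higher and 2 lower past the threshold. Rasa1, which encodes p120 RasGAP, had 140, 141 and 140 CPM in sgControl and 118 and 114 CPM in sgMef2d. Its sgControl libraries lay close together and both sgMef2d libraries were below them, and it fell with a log2FC of -0.28 (adjusted p = 0.0135, the same test). Rasa2 had 42.3, 42.8 and 42.5 CPM in sgControl and 35.5 and 31.9 CPM in sgMef2d, and fell with a log2FC of -0.33 (adjusted p = 0.0219). The other 5, Nf1, which encodes neurofibromin, among them, did not pass. For Nf1 the sgControl libraries had 74.1, 99.7 and 104 CPM and the sgMef2d libraries 86.2 and 85.1 CPM, so sgControl replicate 1 lay below and the other sgControl libraries above the sgMef2d range (log2FC -0.10, adjusted p = 0.646). Without sgControl replicate 1, 5 of the 7 passed, all lower, in a fit where 29.4% of all genes passed. Nf1 was among these 5 (adjusted p = 4.81e-05 by edgeR), while with the length and GC trend removed its log2FC was -0.016.

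Of the 13 genes for the processing and turnover of RAS, all were tested, with a median log2FC of 0.056, and 1 was higher past the threshold (4 without sgControl replicate 1). Abhd17c, which encodes an enzyme that takes palmitate off proteins such as NRAS, had 48.71, 48.29 and 49.98 CPM in sgControl and 60.4 and 57.0 CPM in sgMef2d. The groups did not overlap, and it rose with a log2FC of 0.26 (adjusted p = 0.0354, the same test), which DESeq2 did not call (0.0889). Of 12 genes for RAS-like GTPases, 11 were tested, with a median of -0.12, 9 below 0, and 1 was lower past the threshold (3 without sgControl replicate 1). Mras, whose product works with SHOC2 in RAF activation, had 29.9, 33.2 and 31.3 CPM in sgControl and 21.1 and 26.1 CPM in sgMef2d, and fell with a log2FC of -0.42 (adjusted p = 0.0290). Without sgMef2d replicate 1 its log2FC was -0.27 (adjusted p = 0.330).

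Of 26 genes for scaffolds and regulators of the cascade, 25 were tested, with a median log2FC of 0.026, and 1 was higher past the threshold. Sfn, the 14-3-3 sigma gene of epithelial cells and a p53 target, had 76.2, 60.8 and 63.2 CPM in sgControl and 94.3 and 91.8 CPM in sgMef2d. It rose with a log2FC of 0.47 (adjusted p = 0.00783), and sgControl replicate 1 was the highest of its group. The other 24 did not pass in that fit, while without sgControl replicate 1 there were 8 higher and 1 lower. All 8 genes for kinases activated by ERK were tested, and 0 passed, with a median of -0.13. The smallest p there was that of Rps6ka6, which encodes RSK4 (log2FC -0.26, adjusted p = 0.0621). Among the parallel MAP kinases and their kinases 13 of 16 were tested and 0 passed, with a median of 0.061, and Map2k3, a kinase of p38, had the smallest p (log2FC 0.19, adjusted p = 0.0783, and 0.12 with the trend removed, adjusted p = 0.156). In these 2 lists, 3 of 8 and 2 of 13 genes had an unadjusted p below 0.05 in edgeR, against 23.2% of all genes. DESeq2 and limma-voom called 0 in both, and without sgControl replicate 1 edgeR called 3 and 2, against 29.4% of all genes.

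**Figure D4:**
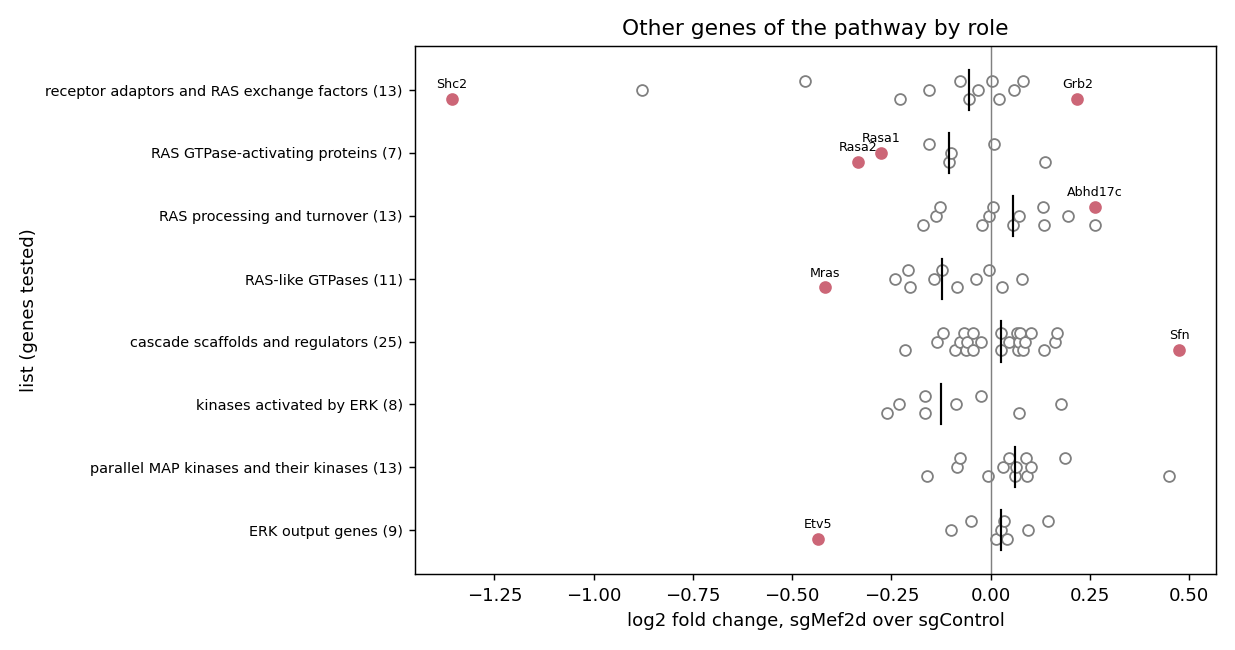
Log2 fold change of sgMef2d over sgControl (horizontal axis) of each gene tested in the 8 lists by role, with the number of genes tested in brackets; filled red points with names passed the adjusted p threshold, open points did not, and black bars are the medians. The 8 genes that passed are spread over 6 of the lists, and the medians lie between -0.13 and 0.061.

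The ERK output list holds transcripts known to rise with ERK activity in many cells. Of its 10 genes 9 were tested, with a median log2FC of 0.025, 6 above and 3 below 0. Of these 1 passed the threshold, downward (1 higher and 1 lower without sgControl replicate 1). With the length and GC trend removed the median was -0.0052. Etv5, an ETS transcription factor, had 17.3, 19.2 and 20.9 CPM in sgControl and 13.7 and 14.5 CPM in sgMef2d. The groups did not overlap, and it fell with a log2FC of -0.44 (adjusted p = 0.0349, the same test), which DESeq2 did not call (0.0543). Phlda1, the gene higher without sgControl replicate 1 (adjusted p = 0.0426 by edgeR), had a log2FC of 0.14 over all libraries (adjusted p = 0.191). Its groups did not overlap, with 111, 115 and 117 CPM in sgControl and 131 and 121.5 CPM in sgMef2d. With the length and GC trend removed its log2FC was 0.070. Dusp6, a phosphatase of ERK, and Ccnd1, which encodes cyclin D1, had log2FC values of 0.034 (adjusted p = 0.901) and -0.049 (0.658).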

How the data were processed

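RNA of EpH4 cells was sequenced from poly(A)-selected libraries made with a kit that marks strand. Reads were checked by the authors with FASTQC and RSeQC and mapped to GRCm38 with STAR2, and the deposited table holds raw counts, whole numbers without normalization. The tools listed with the samples also name CASAVA and Subread. The table gives Ensembl identifiers alone. The methods name GENCODE version 22; all 12934 identifiers matched GENCODE M21, from which names were taken, 12811 with the same version. The highest count of a gene over the libraries was never below 11. All columns were used, and 0 rows were without a gene.

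All 5 libraries entered 1 fit in edgeR 4.0.16 (R 4.3.3), with TMM factors of 0.996 to 1.003, 12483 genes kept by its expression filter and bias-adjusted quasi-likelihood testing. Standard errors came from the fitted information and the moderated quasi-dispersion, and 95% intervals from the t quantiles of the fit. The biological coefficient of variation was 0.0607. No molecular identifiers are described, so PCR copies may count as reads. Each member had at least 893 counts in a library, and counting error is part of the spread between libraries. The fit was tested on simulated data with known changes.

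The members and lists were chosen with earlier results of these data known. Genes named beside the members were, per list, up to 3 higher and 3 lower past the threshold with the smallest p. Where none passed, the gene with the smallest p was named, and the closest gene to each member was named too. Nf1, Phlda1, Dusp6 and Ccnd1 were added after their values were seen. Alternatives were size factors of DESeq2 1.42.0, library totals, no filter, the DESeq2 Wald test, limma-voom (limma 3.58.1), the legacy quasi-likelihood form, a replicate block, each library left out, and a loess fit (span 0.3) to remove the length and GC trend of transcripts in each library. Paralog ratios were also taken on log2 CPM with a prior count of 2 and, chosen after seeing the data, with that trend removed; the markers named were chosen after their values were seen. Apart from the genes in the lists by role, other genes of the RAS, RAF, MEK and ERK families were not analysed singly here. One shared sequence is not reported here.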

Additional observations from a re-analysis of the deposited data

How the results depend on the processing

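Leaving out single libraries moved the counts most. The number of genes past the threshold lay between 234 and 3639, that of members between 0 and 3, and that of genes of the 8 lists between 0 and 33. All 3 upper ends are the fit without sgControl replicate 1. Without sgControl replicate 2, sgMef2d replicate 1 or sgMef2d replicate 2, all genes came to 603, 238 and 234 and the lists to 1, 0 and 1, and without sgControl replicate 3 the lists came to 5. Leaving out an sgMef2d library leaves 1 sample in that group, which is assumed to vary like the sgControl libraries. The DESeq2 Wald test called 5 genes of the lists in place of 8, without Grb2, Abhd17c and Etv5, and limma-voom 7, without Shc2. Over the fits without a library, the log2 fold change ranged from 0.23 to 0.30 for Hras, from -0.035 to 0.0076 for Nras, from -0.063 to -2.1e-04 for Araf, from -0.25 to -0.15 for Braf, from -0.034 to 0.018 for Map2k1, from 0.17 to 0.24 for Map2k2 and from -0.039 to 0.032 for Mapk3. The adjusted p over all alternatives ranged from 4.40e-07 to 0.343 for Hras, from 2.37e-04 to 0.625 for Braf and from 1.25e-05 to 0.492 for Map2k2. Hras, Araf, Braf and Map2k2 kept their direction in all 13 alternatives. With the length and GC trend removed, Nras turned to 0.043 and Mapk3 to -0.069. Mapk3 also turned with DESeq2 size factors (-4.22e-05), library totals (-0.0066), no filter (-7.0e-04), the DESeq2 Wald test (-4.26e-05) and the replicate block (-0.0088). The causes of these changes were not tested. The paralog ratios were recomputed with a prior count, without each library and, chosen after seeing the data, with the trend removed. Their differences moved by more than 1 SD of sgControl only for Hras/Nras with the trend removed (0.16 in place of 0.28).

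The replicate numbers did not pair the libraries: the deviations of same-numbered libraries from their group means had correlations of 0.011 and -9.2e-04 across genes. With the replicate block, sgControl replicate 3 has no partner, so it adds nothing to the difference between the groups. In that fit 1253 genes passed the threshold, 902 of the 992 among them. The log2 fold change of Hras was 0.26 (adjusted p = 0.0299 by edgeR). Of Hras and the 8 called genes of the lists, only Grb2 lost its call there (0.23, adjusted p = 0.0672).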
